A study of Mus musculus with 7 samples.

Results

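The 8 genes described here, *Bpifa1*, *Obp2a*, *Hamp*, *Fabp9*, *Resp18*, *Mt4*, *Spp1* and *Ttr*, are known from mature peripheral tissues and were followed in single thymic epithelial cells (TECs). They are 8 of the 20839 genes listed in any library. They were chosen by name with measured values of these cells known, from how often each was detected by *Aire* level, *Fezf2* detection and library and with the other genes of the 8, so those values are given as a description and carry no test. Not all 8 genes encode airway, salivary or testis secretions. *Bpifa1* and *Obp2a* encode secreted proteins of the airway and nose, *Hamp*, *Spp1* and *Ttr*, the last for the thyroxine and retinol carrier transthyretin, encode secreted proteins best known from liver, bone and the choroid plexus, and *Resp18* encodes a protein of endocrine granules. *Fabp9*, the fatty acid-binding protein of the testis, and *Mt4*, the metallothionein of stratified epithelia, encode proteins that stay inside the cell.

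Medullary TECs transcribe many genes that otherwise mark single peripheral tissues, each in a small share of cells, and present their products to developing T cells so that self-reactive cells are deleted or turned into regulatory T cells. Aire, a chromatin-binding regulator, and Fezf2, a zinc-finger transcription factor, are the best known drivers of this promiscuous expression. RANKL is a cytokine that medullary TECs need to mature to the *Aire*-expressing stage, and an antibody against it removes that stage for a time.

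The data were droplet-based single-cell RNA sequencing of EpCAM+ CD45- cells from C57BL/6 thymi, 7 libraries with 3 pooled thymi each. Both isotype control libraries came from mice given 3 treatments of 100 µg of isotype antibody in 1 week, collected at week 2 (4 weeks of age) and week 10 (12 weeks of age). Anti-RANKL libraries had the same schedule with 100 µg of anti-RANKL and were collected at weeks 2, 4, 6 and 10, at 4, 6, 8 and 12 weeks of age. The *Aire* trace library came from mice of 6 weeks of age that carried Aire-CreERT2 and R26-CAG-Stopfl-zsGreen and were given tamoxifen over 10 days, 2 mg on alternate days. In these mice Cre is made in cells that express *Aire*, acts only under tamoxifen, and leaves a lasting ZsGreen transcript in the marked cells and their descendants. Each condition is a single library, so the spread between animals is unknown, no p-value is given between conditions, and intervals cover counting error only.

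The libraries held 8453 cells, with 730 to 1475 cells and 3857876 to 22197691 unique molecular identifiers (UMIs, each counting a single captured RNA molecule) per library. The median cell held from 4299.5 UMIs at week 6 after anti-RANKL to 16809 UMIs in the week 2 control, and any pair of libraries shared 0 to 7 cell barcodes. The 8220 cells with no UMI of *Ptprc*, which encodes CD45, were used for every value below unless stated. Of them 90.4% had a UMI of *Epcam*, 99.8% of *Cd74*, 37.2% of *Aire* and 62.3% of *Fezf2*. Since depth differed between libraries and cells, shares of cells with a gene are given as the share expected after drawing 2000 UMIs from each cell, and the 172 shallower cells, 111 at week 4 and 61 at week 6 after anti-RANKL, were left out of those shares.

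*Bpifa1*, a secreted antibacterial protein of the upper airway, lies on chromosome 2 from 154142880 to 154149219 (plus strand, GRCm38, as for all positions). *Obp2a*, an odorant-binding lipocalin of the nose, lies on the same chromosome from 25700043 to 25703326 (plus strand). The minus strand of chromosome 7 holds *Hamp*, the precursor of the iron hormone hepcidin, from 30942368 to 30944032, and that of chromosome 3 holds *Fabp9* from 10193621 to 10197283. *Resp18* takes up bases 75272199 to 75278415 of chromosome 1 on the minus strand, and *Mt4* bases 94137197 to 94139031 of chromosome 8 on the plus strand. *Spp1*, which encodes the bone matrix protein osteopontin, lies on chromosome 5 from 104435118 to 104441050 (plus strand). Reads of some of these genes could be shared with a copy. Of the 50-base stretches of their transcripts, 81 of 695 of *Obp2a* also occurred in *Obp2b*, 60 of 361 of *Hamp* in *Hamp2*, 296 of 648 of *Fabp9* in Gm37389 and 212 of 1829 of *Spp1* in Gm42793, so counts of these 4 genes are uncertain to that extent. No stretch of *Bpifa1*, *Resp18*, *Mt4* or *Ttr* was shared.

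Promoter sequences are shown for *Obp2a*, *Mt4* and *Spp1*, which stood together as the 3 genes with the largest ratio between *Aire* classes, and for *Bpifa1*, which stood apart. Each run holds the 100 bases before the RefSeq start on GRCm38.p6, read 5′ to 3′ on the plus strand, with the letters TATAAA in capitals where they occur.
Obp2a, chr2:25699974-25700073: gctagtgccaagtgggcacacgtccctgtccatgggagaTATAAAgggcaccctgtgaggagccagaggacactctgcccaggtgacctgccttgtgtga
Mt4, chr8:94137104-94137203: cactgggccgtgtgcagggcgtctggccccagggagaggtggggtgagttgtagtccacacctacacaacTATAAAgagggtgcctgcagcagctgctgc
Spp1, chr5:104435011-104435110: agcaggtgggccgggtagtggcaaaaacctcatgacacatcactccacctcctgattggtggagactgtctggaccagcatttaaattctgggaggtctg
Bpifa1, chr2:154142780-154142879: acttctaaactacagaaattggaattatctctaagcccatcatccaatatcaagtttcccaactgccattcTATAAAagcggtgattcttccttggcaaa
TATAAA, the core of the TATA box, searched on both strands, began 61, 30 and 29 bases before the RefSeq start of *Obp2a*, *Mt4* and *Bpifa1*, and was not in these windows of *Spp1*, *Hamp* or *Resp18*. The RefSeq start is not always the gene start given above. The runs of *Obp2a* and *Mt4* end past the gene starts 25700043 and 94137197, so from those starts the distances are shorter. It occurred in 5.56% of the 32851 RefSeq promoter windows of this length. The 6 genes with an entry had 2 to 5 CpG dinucleotides in the 300 bases around their start, against a median of 7 over all promoters.

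Each gene was expressed strongly by few cells and met as a single UMI in many more. *Bpifa1* had a UMI in 1404 of the 8220 cells, *Resp18* in 1123, *Hamp* in 1045, *Fabp9* in 555, *Mt4* in 434, *Spp1* in 335, *Obp2a* in 292 and *Ttr* in 105. Of the cells with the gene, between 43.5% (*Obp2a*) and 71.6% (*Bpifa1*) held exactly 1 UMI of it. At the other end 91 cells held 10 or more UMIs of *Bpifa1*, 173 of *Hamp*, 169 of *Resp18*, 104 of *Fabp9*, 90 of *Mt4*, 73 of *Spp1*, 59 of *Obp2a* and 14 of *Ttr*. These strongly expressing cells were 6.48% of the cells with *Bpifa1* and 13.3% to 21.8% of those with any other gene of the 8, and held from 75% (*Resp18*) to 93.0% (*Mt4*) of all UMIs of the gene. The single highest cell, in the *Aire* trace library, held 2601 UMIs of *Bpifa1*, which were 52.5% of all *Bpifa1* UMIs of its library. *Bpifa1* reached 20.6% of all UMIs of a cell, *Ttr* 3.15%, *Fabp9* 3.07% and the other genes between 0.856% and 2.37%.

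**Figure D1:**
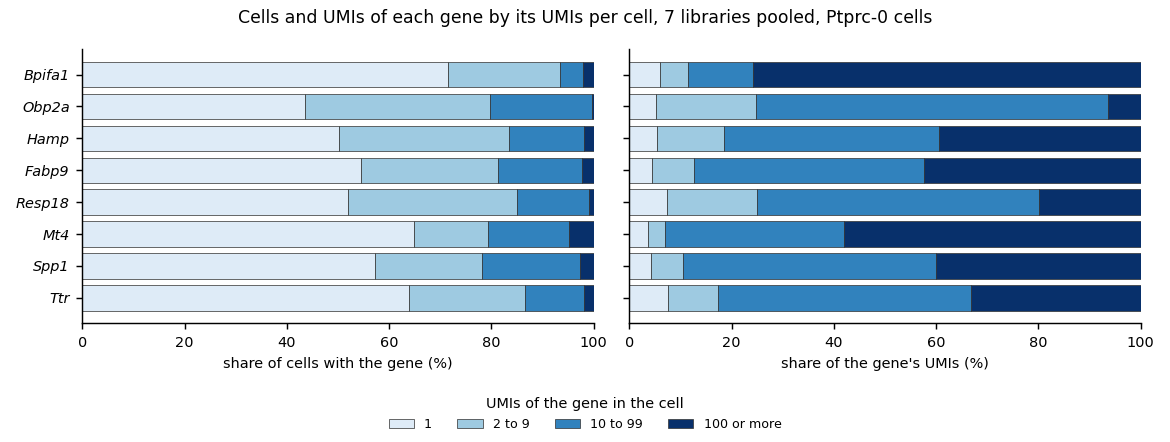
Stacked bars show, for each gene over the 7 libraries pooled, the percent of its cells (left) and of its UMIs (right) by the UMIs of the gene in the cell. Cells with 1 UMI are the largest group for every gene, while most UMIs sit in cells with 10 or more.

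Free RNA in droplets can give a UMI to a cell that does not express a gene, so the shares were set beside those in cells chosen by other genes. For this 1453 cells with 10 or more UMIs of *Ccl21a* and none of *Aire*, *Fezf2* or *Ptprc* were taken (median 5943 UMIs, against 8014.5 UMIs over all 8220 cells). *Bpifa1* stood at 5.46% (95% exact interval 4.32 to 6.79) there and at 5.79% (5.29 to 6.32) over all cells, at 6.14% in 314 cells with 4 or more tuft markers and at 5.91% in the 233 cells with a *Ptprc* UMI. These sets need not lack the antigens. *Aire* was detected in 17.8% and *Fezf2* in 37.3% of the tuft-marker cells, and *Aire* in 35.2% of the *Ptprc* cells. The *Ccl21a*-high cells may have expressed *Aire* earlier. Like shares of *Bpifa1* in all sets therefore do not separate free RNA from expression. The share of cells with a *Bpifa1* UMI is not read as expression here, and only its strongly expressing cells are. Values over at least 1 of the 8 genes, and joint detection of *Bpifa1* with other genes, count its single UMIs, so the former are also given without *Bpifa1*. The other genes were rarer in the *Ccl21a*-high cells than over all cells. *Hamp* was at 1.16% against 5.37%, *Resp18* at 1.34% against 5.70%, and *Fabp9* at 0.572% against 2.92%. *Mt4* was at 0.273% against 2.06%, *Obp2a* at 0.229% against 1.72%, *Spp1* at 0.340% against 1.65% and *Ttr* at 0.146% against 0.437%. Except for *Ttr*, whose intervals (0.0179 to 0.525% and 0.304 to 0.606%) overlapped, these pairs of intervals did not overlap. All these shares pool the libraries, which differed in make-up. *Aire* was at 0 in 32.0% of cells of the week 2 control and in 95.7% at week 4 after anti-RANKL. The pooled pairs therefore do not separate a difference between kinds of cell from 1 between libraries.

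The first question was how these genes stood to the level of *Aire*. Cells were divided into those with *Aire* at 0 (5159 cells), above 0 to 1.5 (1292 cells) and above 1.5 (1769 cells) on the deposited scale, the natural log of 1 plus the UMIs per 10000. Means give equal weight to 6 libraries, since week 4 after anti-RANKL had only 22 cells above 1.5. Of the 8 genes 5 were at least 2-fold more frequent above 1.5 than at 0, where 17.6% of all 15432 genes tested were. Since these values chose the genes, nothing is read from the count. The median log2 ratio, with 0.01 percentage points added to each share, was 1.41 over the 8 genes and -0.14 over all genes.

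*Obp2a* differed most between the classes. It was found in 0.690% ± 0.486 (SD, n = 6 libraries) of cells with *Aire* at 0, 2.04% ± 1.33 up to 1.5 and 4.93% ± 2.57 above 1.5, a ratio of 7.13 between the outer classes. Above 1.5 it stood at 8.69% in the *Aire* trace, 5.50% in the week 2 control, 3.68% in the week 10 control, 1.10% at week 2, 4.27% at week 6 and 6.31% at week 10 after anti-RANKL, and every library was higher above 1.5 than at 0. *Mt4* went from 1.08% ± 0.865 through 3.24% ± 2.83 to 5.12% ± 2.61, a ratio of 4.75, with every library higher above 1.5 than at 0. *Spp1* went from 0.838% ± 0.680 through 2.36% ± 2.19 to 3.41% ± 2.33, a ratio of 4.07, and was lower above 1.5 than at 0 only at week 2 after anti-RANKL, where 0 of 62 cells above 1.5 had it, which allows a share of up to 4.84%. The strongly expressing cells of these 3 genes were nearly all *Aire*-positive. Only 2 of 59 for *Obp2a*, 6 of 90 for *Mt4* and 4 of 73 for *Spp1* had *Aire* at 0, and 44, 51 and 47 were above 1.5.

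*Hamp* differed less between the classes, with 3.64% ± 2.06, 7.57% ± 4.13 and 12.6% ± 5.89, a ratio of 3.46, and was higher above 1.5 than at 0 in every library. It reached 22.8% of the 118 cells above 1.5 in the *Aire* trace. *Resp18* stood at 5.10% ± 3.58, 8.77% ± 4.42 and 10.4% ± 6.27, a ratio of 2.04, and the week 2 control was an exception with 10.2% at 0 and 9.55% above 1.5. *Resp18* was highest in the middle class in 3 of 6 libraries. Of the strongly expressing cells of *Hamp* 40 of 173, and of *Resp18* 53 of 169, had *Aire* at 0.

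*Fabp9*, *Bpifa1* and *Ttr* had ratios near or below 1. *Fabp9* was found in 3.26% ± 2.76, 4.70% ± 3.36 and 3.73% ± 2.65 of the cells from low to high *Aire*, a ratio of 1.14. Above 1.5 it was lower than at 0 in both controls, with 4.54% against 7.42% at week 2 and 2.73% against 3.24% at week 10, and higher in the *Aire* trace, with 8.18% against 2.14%. *Bpifa1* stood at 7.21% ± 6.52, 8.52% ± 6.97 and 7.45% ± 6.46, a ratio of 1.03. *Ttr* stood at 0.430% ± 0.436, 0.855% ± 0.987 and 0.344% ± 0.354, a ratio of 0.800, on few cells. Of the strongly expressing cells 39 of 104 for *Fabp9*, 49 of 91 for *Bpifa1* and 5 of 14 for *Ttr* had *Aire* at 0. Above 1.5 were 27, 19 and 4 of them.

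**Figure D2:**
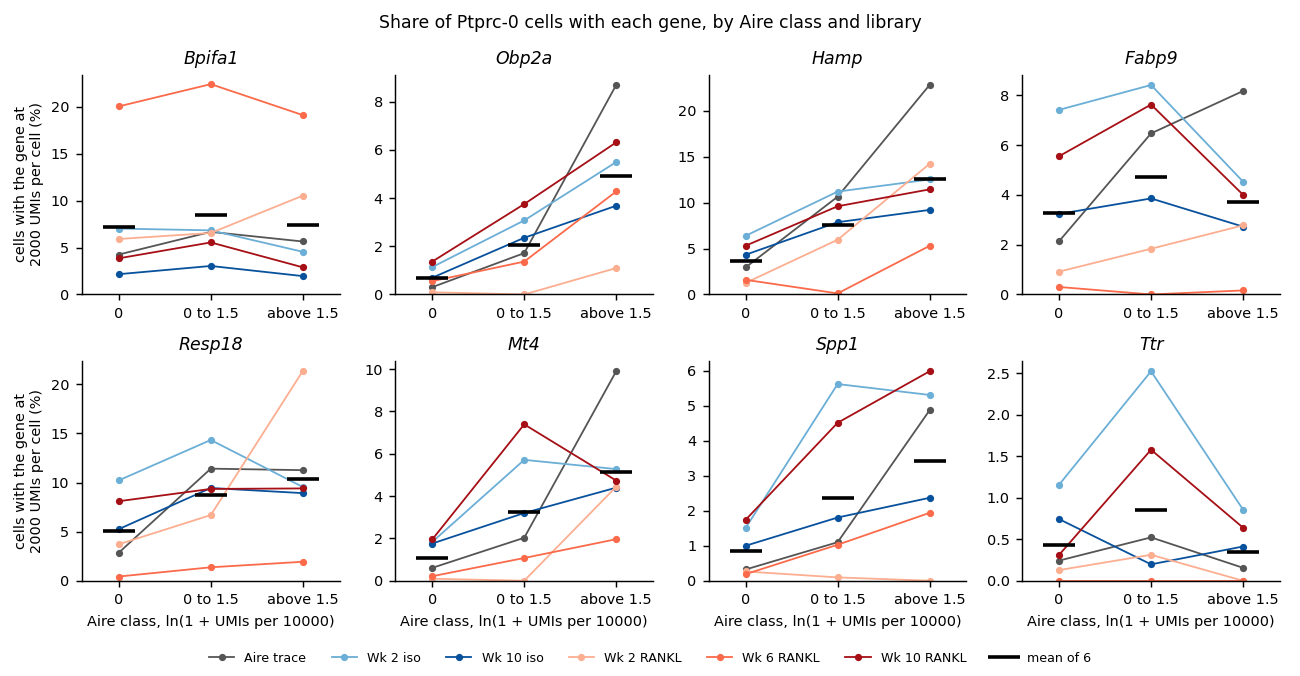
Each panel gives the percent of cells with the gene at 2000 UMIs per cell (vertical axis) in 3 classes of *Aire* level (horizontal axis, natural log scale) for 6 libraries (lines) and their mean (bar). *Obp2a*, *Hamp*, *Resp18*, *Mt4* and *Spp1* have their highest mean above 1.5, *Bpifa1*, *Fabp9* and *Ttr* have it in the middle class, and *Bpifa1* at week 6 lies between 19.1% and 22.4%.

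At least 1 of the 8 genes was found in 18.5% ± 7.31 (SD, n = 6 libraries) of cells with *Aire* at 0, 27.8% ± 8.13 up to 1.5 and 35.5% ± 7.55 above 1.5. The ratio of the outer classes was above 1 in each library, from 1.22 in the week 2 control to 4.33 in the *Aire* trace. The ratio of the means was 1.92, and 2.44 without *Bpifa1*. Cells with more *Aire* were also deeper, with medians of 11231, 18487 and 21905 UMIs in the week 2 control, which the draw of 2000 UMIs sets equal. In shallow cells a single *Aire* UMI already exceeds 1.5, which held for 15.8% of cells at week 4 and 23.4% at week 6 and for none elsewhere.

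*Fezf2* and *Aire* were detected together, so the genes were also set by *Fezf2* within cells with *Aire* at 0. There *Fabp9* was found in 3.74% ± 3.86 (SD, n = 7 libraries) of cells with *Fezf2* and 1.72% ± 1.52 of cells without, a ratio of 2.17, and was higher with *Fezf2* in 7 of 7 libraries. *Resp18* was also higher in 7 of 7 libraries, by a ratio of 1.29. *Obp2a* had a ratio of 2.09 on shares below 1% and was higher in 5 of 7 libraries, *Mt4* 1.51 in 3 of 7 and *Hamp* 1.36 in 5 of 7. *Bpifa1* (1.00), *Spp1* (0.988) and *Ttr* (0.794) had ratios at or below 1. Over all *Aire* classes, *Fezf2* was detected in 90.4% of the strongly expressing cells of *Fabp9*, 90.0% of *Mt4* and 65.9% of *Bpifa1*, against 62.3% of all cells. The other genes lay from 78.6% (*Ttr*) to 84.0% (*Resp18*). These shares are not matched for *Aire*. In the week 2 control *Fezf2* was in 61.5%, 84.9% and 96.5% of cells from low to high *Aire*, and only 6 of the 90 *Mt4* cells had *Aire* at 0. Cells with *Fezf2* were deeper in every library.

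The *Aire* trace library separates cells marked by past or present *Aire* expression from unmarked cells. A ZsGreen UMI was found in 634 cells and not in 684 (medians 11407 and 7958.5 UMIs). At least 1 of the 8 genes was found in 25.5% (22.1 to 29.0) of cells with ZsGreen and 8.34% (6.38 to 10.7) of cells without, and at least 1 gene other than *Bpifa1* in 21.6% and 5.09%. *Hamp* stood at 9.81% against 1.93%, *Resp18* at 7.71% against 1.94% and *Fabp9* at 5.80% against 0.857%. *Mt4* stood at 2.93% against 0.409%, *Obp2a* at 2.22% against 0.327% and *Spp1* at 1.35% against 0.342%. *Bpifa1* stood at 5.89% against 3.59%, with overlapping intervals (4.19 to 8.01% and 2.32 to 5.27%).

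Among cells of this library whose own *Aire* was at 0, ZsGreen still went with the antigens. At least 1 of the genes was found in 15.5% (12.2 to 19.4) of 413 cells with ZsGreen and 8.18% (6.14 to 10.6) of 618 cells without, and at least 1 gene other than *Bpifa1* in 11.5% (8.60 to 15.0) and 4.97% (3.39 to 6.99). *Fabp9* was at 4.00% (2.32 to 6.36) against 0.899% (0.314 to 2.00), and *Hamp* at 4.53% (2.74 to 7.01) against 1.90% (0.977 to 3.31). *Obp2a*, *Mt4* and *Spp1*, the genes tied most to high *Aire*, were each under 1% in both. Among cells with *Aire* up to 1.5 the genes were found in 37.2% (28.4 to 46.7) of 115 cells with ZsGreen and 7.87% (2.3 to 18.5) of 54 cells without.

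The next question was how detection moved along the anti-RANKL time course. Week 2 after anti-RANKL is compared with the week 2 control, and weeks 4, 6 and 10 with the week 10 control, which they share and which matches only week 10 in age. The genes themselves were chosen on these values, so nothing is read from the counts. Week 2 had 7 of 8 genes at least 2-fold less frequent than its control, where 12.5% of 13350 genes tested were. Week 4 had 6 of 7 (16.6% of all genes), week 6 had 5 of 7 (14.8%) and week 10 had 0 of 8 (0.873%). Genes not listed were counted as 0, and *Ttr* was too rare to be counted at weeks 4 and 6. In the same libraries the share of cells with *Aire* above 1.5 was 40.4% and 44.0% in the week 2 and week 10 controls and 5.24%, 1.52%, 15.2% and 38.7% at weeks 2, 4, 6 and 10 after anti-RANKL.

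In both controls *Hamp* and *Resp18* were each found in a larger share of cells than any other gene of the 8. *Hamp* was found in 5.72% of cells in the *Aire* trace, 10.2% and 7.26% in the week 2 and week 10 controls, and 2.50%, 0.717%, 1.88% and 8.51% at weeks 2, 4, 6 and 10 after anti-RANKL. Its ratios to control were 0.245, 0.0988, 0.259 and 1.17. *Resp18* was found in 4.71% in the *Aire* trace, 11.1% and 7.79% in the controls, and 4.99%, 0.415%, 0.854% and 8.84% along the course, with ratios of 0.450, 0.0533, 0.110 and 1.13. Both were lowest at week 4, and at week 10 their intervals overlapped those of the control (6.97 to 10.3% against 5.88 to 8.84% for *Hamp*).

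The testis and squamous genes had lower ratios at week 2. *Fabp9* was found in 3.24% of cells in the *Aire* trace, 6.53% and 3.15% in the week 2 and week 10 controls, and 1.12%, 0.113%, 0.218% and 5.36% along the course. Its ratio was 0.172 at week 2 and 1.70 at week 10, and the intervals at weeks 4 and 6 were 0.00822 to 0.479% and 0.0143 to 0.955%. *Mt4* was found in 1.62% in the *Aire* trace, 4.30% and 3.24% in the controls, and 0.311%, 0.660% and 4.07% at weeks 2, 6 and 10. Its ratios at weeks 2, 6 and 10 were 0.0723, 0.204 and 1.26, and it was not listed at week 4.

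The remaining genes encode the nasal lipocalin, osteopontin and transthyretin. *Obp2a* was found in 1.24% of cells in the *Aire* trace, 3.43% and 2.37% in the controls, and 0.133% (0.0105 to 0.551), 1.30% (0.580 to 2.49) and 3.73% (2.72 to 4.98) at weeks 2, 6 and 10. *Spp1* was found in 0.829% in the *Aire* trace, 4.18% and 1.78% in the controls, and 0.231% (0.0427 to 0.704), 0.631% (0.178 to 1.58) and 3.91% (2.88 to 5.19) at weeks 2, 6 and 10. *Ttr* was found in 0.271% in the *Aire* trace, 1.41% and 0.477% in the controls, and 0.143% (0.0132 to 0.568) and 0.680% (0.294 to 1.34) at weeks 2 and 10. At week 4 none of these 3 genes was listed, nor was *Ttr* at week 6. The authors kept genes found in at least 3 cells, so up to 2 cells of a library could have held a gene that it does not list.

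*Obp2a* stood out at week 6, where its ratio to control of 0.546 was the highest of the 6 genes other than *Bpifa1* that could be tested, with 2 strongly expressing cells. *Spp1* was the only gene of the 8 past 2-fold at week 10, where it was 2.2-fold more frequent than in the control and where 1.41% of all genes were at least 2-fold more frequent. Its intervals at week 10 did not overlap (2.88 to 5.19% against 1.12 to 2.68%). The controls themselves differed, with 4.18% at week 2 and 1.78% at week 10, so *Spp1* at week 10 after anti-RANKL lay between them.

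*Bpifa1* did not follow the other genes. It was found in 4.69% of cells in the *Aire* trace, 5.97% and 2.27% in the controls, and 6.23%, 4.17%, 20.4% and 3.81% at weeks 2, 4, 6 and 10 after anti-RANKL. Week 6 was 9.0-fold above its control, where 7.77% of all genes were at least 2-fold more frequent, and lay above every other library (17.4 to 23.7%). At week 6 its share was 20.1%, 22.4% and 19.1% over the 3 *Aire* classes and 22.6% (16.1 to 30.3) in the 165 *Ccl21a*-high cells, and the cause of the high share was not tested. By summed CPM (UMIs scaled to a common total), over cells of at least 2000 UMIs, *Bpifa1* was more than 2-fold above its control at every week, by 2.07, 7.28, 17.5 and 3.01 times at weeks 2, 4, 6 and 10. These sums rest on few cells. Strongly expressing cells held 91.2%, 91.0%, 76.6% and 81.0% of its UMIs at those weeks, and the single highest cell 37.4% at week 6. By share of cells the ratios at weeks 2, 4 and 10 were 1.04, 1.84 and 1.68. Strongly expressing cells of *Bpifa1* numbered 13 in the *Aire* trace, 29 and 6 in the week 2 and week 10 controls, and 19, 5, 4 and 15 along the course, or 0.556% (0.152 to 1.42) of cells at week 6.

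**Figure D3:**
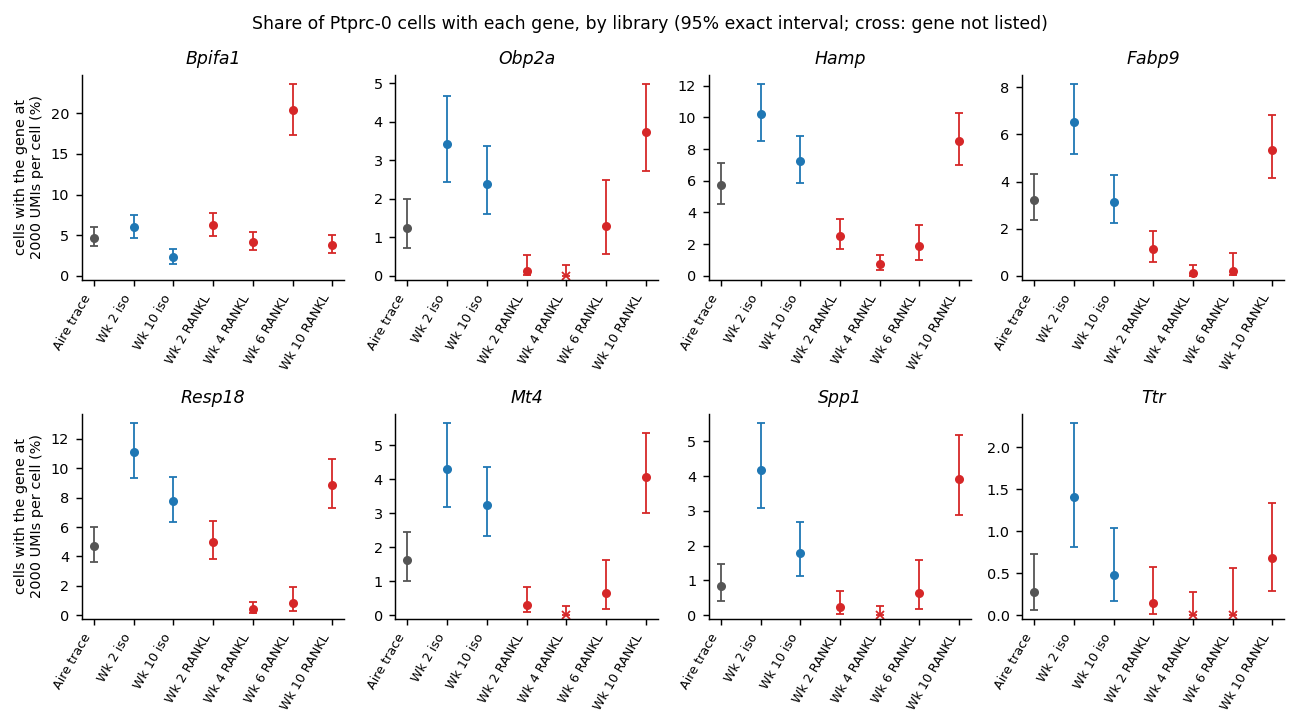
Each panel gives the percent of cells with the gene at 2000 UMIs per cell (vertical axis) in each library (horizontal axis), with the 95% exact interval, and a cross where the gene was not listed. For 7 genes weeks 2 to 6 after anti-RANKL lie below both controls and week 10 lies at or above the week 10 control, while *Bpifa1* peaks at week 6 at 20.4%.

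Strongly expressing cells of the 7 other genes were counted in the cells as deposited. These counts are not matched for depth, and median UMIs per cell were 16809 and 8333 in the controls of weeks 2 and 10, against 11145.5, 4779, 4299.5 and 7332 at weeks 2, 4, 6 and 10 after anti-RANKL. The week 2 control held 62 such cells for *Hamp*, 70 for *Resp18*, 41 for *Fabp9*, 26 for *Mt4*, 31 for *Spp1*, 23 for *Obp2a* and 8 for *Ttr*, of 1129 cells. At week 2 after anti-RANKL 1184 cells held 14, 25, 8, 1, 1, 0 and 1. At week 4 there were 3 for *Hamp*, 1 for *Resp18* and none for the others, and at week 6 there were 2 for *Obp2a*, 1 for *Spp1* and none for the others. At week 10 the numbers were 33, 28, 24, 27, 26, 14 and 2 of 1172 cells, against 27, 26, 11, 24, 10, 12 and 2 of 1247 cells in the control of that week. At least 1 gene other than *Bpifa1* was found in 13% of cells in the *Aire* trace, 31.5% and 20.9% in the controls, and 7.59%, 1.18%, 4.78% and 26.5% along the course.

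Values among cells with an *Aire* UMI show how much of the course remained once *Aire*-negative cells were set aside. In the week 2 control 768 cells had *Aire*, and at week 2 after anti-RANKL 203. *Resp18* was found in 11.5% (9.33 to 14.0) of the former and 11.2% (7.19 to 16.3) of the latter, and *Hamp* in 12.0% (9.78 to 14.5) and 8.49% (5.04 to 13.2). *Obp2a* stood at 4.51% (3.16 to 6.23) against 0.335% (0.00186 to 2.44), and *Spp1* at 5.44% (3.94 to 7.28) against 0.0661% with an upper bound of 1.94%. *Mt4* stood at 5.45% (3.96 to 7.30) against 1.36% (0.255 to 4.08) and *Fabp9* at 6.12% (4.53 to 8.05) against 2.12% (0.619 to 5.18). So among *Aire*-positive cells at week 2 the intervals of *Obp2a* and *Spp1* lay apart, and those of *Resp18*, *Hamp*, *Mt4* and *Fabp9* overlapped. *Aire*-positive cells of this library also held less *Aire*, with 62 of 203 above 1.5 against 456 of 768 in its control, and the part of that in these differences was not tested.

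At week 6 the 235 cells with *Aire* had *Resp18* in 1.62% (0.423 to 4.18), *Hamp* in 2.39% (0.843 to 5.25) and *Fabp9* in 0.0707% (upper bound 1.70%), against 9.10%, 8.77% and 3.10% of the 823 such cells of the week 10 control. *Obp2a* stood at 2.64% (0.995 to 5.59) against 3.24% (2.14 to 4.69), *Spp1* at 1.43% against 2.18% and *Mt4* at 1.46% against 4.00%. The intervals of *Resp18*, *Hamp* and *Fabp9* lay apart at week 6, and those of *Obp2a*, *Spp1* and *Mt4* overlapped. At week 10 the 677 cells with *Aire* held all 7 genes in a share at or above that of the control, among them *Fabp9* at 5.21% against 3.10% and *Spp1* at 5.50% (3.90 to 7.49) against 2.18% (1.30 to 3.43).

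A small share of cells, 4.54% against 3.03% if independent, held more than 1 of the genes. At 2000 UMIs 365 cells were expected to hold 2 or more of the 8, against 244 if the genes were independent within each library and *Aire* class, a ratio of 1.5 (95% exact Poisson interval 1.35 to 1.66, 8048 cells). Joint detection was among the values that chose the genes, so the ratios are a description. Over the 28 pairs the median ratio was 1.64. The best filled pairs lay among *Fabp9*, *Resp18* and *Hamp*, and a further set of high ratios among *Obp2a*, *Mt4* and *Spp1*, sets that were chosen after their values were seen. *Fabp9* and *Resp18* had a ratio of 3.01 (2.31 to 3.85), *Fabp9* and *Hamp* 2.75 (2.07 to 3.58) and *Hamp* and *Resp18* 2.36 (1.90 to 2.89). *Obp2a* and *Mt4* had 3.34 (2.08 to 5.09) and *Obp2a* and *Spp1* 2.38 (1.27 to 4.08), while *Mt4* and *Spp1* had 1.61 (0.762 to 2.98). Between these sets the ratios ran from 1.13 (0.472 to 2.26) for *Fabp9* and *Spp1* to 1.65 (0.899 to 2.78) for *Fabp9* and *Mt4*. *Bpifa1* had 2.13 (1.20 to 3.52) with *Obp2a* and 2.11 (1.35 to 3.13) with *Fabp9*. For 2 or more genes without *Bpifa1* the ratio was 1.64, and for all 8 without thinning it was 1.07. *Ttr* had its highest ratio with *Fabp9*, 3.86 (1.61 to 7.76) on 7.52 joint cells.

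**Figure D4:**
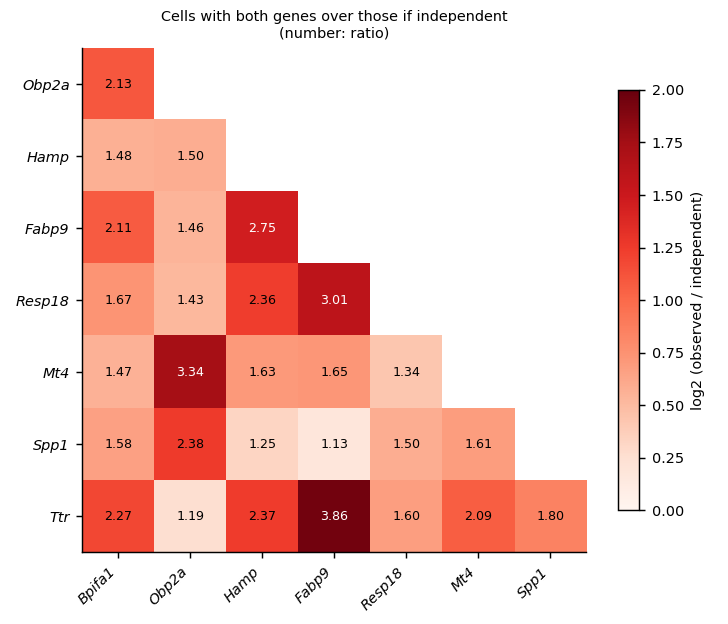
Each square gives the ratio of cells with both genes to the number if the genes were independent within library and *Aire* class, over 8048 cells at 2000 UMIs, with colour on a log2 scale. The highest ratios are 3.86 for *Fabp9* with *Ttr* and 3.34 for *Obp2a* with *Mt4*.

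Other measures of the same cells were tested. The gene lists behind 3 of these 4 measures were chosen with earlier results of these data known, which limits what their p-values show. Among cells with *Aire* above 1.5, those with at least 1 of the 8 genes were compared with the rest in each of 6 libraries by an exact permutation test that flips the sign of each library's difference (two-sided, smallest possible p = 0.03125, adjusted by Benjamini-Hochberg over 4 measures). Cells with a gene held more genes of 3 lists of other peripheral antigens, 2.78 against 1.72 per cell at 2000 UMIs, a difference of 1.06 ± 0.212 (SD, n = 6, exact p = 0.03125, adjusted p = 0.0417, higher in 6 of 6). They held 0.676 against 0.488 keratinocyte genes, a difference of 0.188 ± 0.0806 (n = 6, exact p = 0.03125, adjusted p = 0.0417, higher in 6 of 6). They held 101 against 81.9 UMIs of MHC class II and costimulation genes, a difference of 19.5 ± 7.30 (n = 6, exact p = 0.03125, adjusted p = 0.0417, higher in 6 of 6). The number of genes detected per cell was 955 against 961 (difference -6.46 ± 10.2, n = 6, exact p = 0.1875, adjusted p = 0.1875, lower in 5 of 6). With the cells chosen by the genes other than *Bpifa1*, the differences were 1.13 antigens, 0.228 keratinocyte genes and 18 MHC class II UMIs (each exact p = 0.03125, adjusted p = 0.0417, n = 6). The 3 antigen lists hold chromosomal neighbours of the 8 genes, among them *Hamp2*, *Obp2b*, *Lcn3*, *Lcn6*, *Bpifa5*, *Bpifb1*, *Ibsp* and *Ptprn*. *Hamp2* and *Obp2b* also share sequence with *Hamp* and *Obp2a*. The antigen difference without the neighbours was not tested.

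The antigens behind these differences came from several tissues. Of the listed genes detected in these cells, 36 of 42 airway, salivary and lacrimal genes, 27 of 36 testis and epididymis genes and 24 of 30 liver, choroid plexus, bone and granule genes had a higher mean share in cells with a gene of the 8, where 52.9% of all 18990 genes had. Higher in each of the 6 libraries were 6 airway genes, 1 testis gene and 1 gene of the liver, choroid plexus, bone and granule list, where 1.61% of all genes were. *Reg3g*, an antibacterial lectin, was in 41.4% against 29.6% and *Wfdc2*, a secreted protease inhibitor, in 16.1% against 9.59%. The lipocalin *Lcn3*, a chromosomal neighbour of *Obp2a*, was in 6.96% against 2.12% and the epididymal lipocalin *Lcn8* in 4.84% against 0.890%. Each of these was higher in 6 of 6 libraries. Only the 3 nearest genes per side were counted as neighbours, so *Lcn8* may lie farther along the same chromosome as *Obp2a*, which was not tested. *Wfdc18*, another gene of the airway list, was in 39.8% against 44.3% and higher in 1 of 6. Of the metallothioneins and fatty acid-binding proteins 9 of 12 were higher, among them *Fabp4* with 44.2% against 26.6% and *Mt3* with 10.4% against 4.37% (each in 5 of 6 libraries) and *Fabp12* with 8.38% against 3.07% (6 of 6), which are chromosomal neighbours of *Fabp9* or *Mt4*, while *Mt2* was in 48.4% against 56.6% and higher in 0 of 6. Of the keratinocyte genes 16 of 19 were higher, led by *Sprr1a*, which encodes a cornified envelope protein, with 19.7% against 10.0% (6 of 6). *Sprr1a* was the only 1 of the 19 higher in each library. The 3 that were lower were *Dsg1a* with 7.26% against 11.8% (higher in 1 of 6), *Krt10* with 4.58% against 5.35% (4 of 6) and *Flg* with 0.430% against 0.693% (0 of 6).

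Of the 11 MHC class II and costimulation genes 8 had a higher mean share, and the UMIs lay in the abundant chains. Lower were *Cd80*, with 9.32% against 11.7%, and *Ciita*, with 11.8% against 12.8% (each higher in 2 of 6 libraries). *Cd74*, the invariant chain, had 52.9 against 44.7 UMIs per 2000, *H2-Ab1* 17.0 against 12.7, *H2-Aa* 15.6 against 11.9 and *H2-Eb1* 11.9 against 9.05, each higher in 6 of 6 libraries. *H2-DMb1*, which loads peptide, was in 40.5% of cells against 32.1% (6 of 6). With the 5% of cells with the most UMIs left out, the adjusted p was above 0.05 for antigens (0.0625), keratinocyte genes (0.208) and MHC class II UMIs (0.0625, exact permutation test, n = 6). Antigens and MHC class II UMIs kept the smallest possible exact p of 0.03125 and stayed higher in 6 of 6 libraries. Their adjusted p rose because the exact p of the keratinocyte genes went to 0.156 (higher in 5 of 6). At 1000 UMIs the adjusted p of the keratinocyte genes was 0.1875.

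Strongly expressing cells were set beside the other cells of the same libraries, without matching *Aire*, so differences in *Aire* level are part of these values. Cells with 10 or more UMIs of *Mt4* had 3.80 metallothionein and fatty acid-binding genes per cell at 2000 UMIs, against 2.21 in the other cells. Cells with *Bpifa1* had 2.96 against 1.14 airway, salivary and lacrimal genes, and cells with *Obp2a* 2.75 against 1.21. This list was higher with every other gene too, from 1.69 against 1.22 (*Fabp9*) to 2.29 against 1.29 (*Ttr*). Cells with *Resp18* had 0.976 against 0.315 liver, choroid plexus, bone and granule genes, cells with *Fabp9* had 1.26 against 0.702 keratinocyte genes and cells with *Resp18* 0.575 against 0.703 of the latter. Keratinocyte genes were nearly as high with *Bpifa1* (1.21 against 0.652) and *Mt4* (1.20 against 0.688). Metallothionein and fatty acid-binding genes stood at 3.00 against 2.23 with *Obp2a* and 3.07 against 2.24 with *Spp1*. Liver, choroid plexus, bone and granule genes stood at 0.918 against 0.355 with *Ttr*. Markers of myeloid and B cells moved with all of them, with 0.502 to 0.774 against 0.233 to 0.319 marker genes per cell. Red cell markers moved with *Mt4* (0.254 against 0.0526), *Spp1* (0.201 against 0.0609) and *Obp2a* (0.140 against 0.0578). T cell markers moved with the same genes, *Mt4* (0.206 against 0.0907), *Spp1* (0.214 against 0.0940) and *Obp2a* (0.204 against 0.0916). With the other genes T cell markers ran from 0.0450 against 0.0857 (*Fabp9*) to 0.0950 against 0.0908 (*Ttr*). The part of such cells in these values was not tested.

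Genes that lie beside these genes on the chromosome were often found in the same cells. Joint detection of each gene with its 3 nearest protein-coding neighbours on each side was counted in 3055 cells with an *Aire* UMI and compared with the number if independent within each library. Of 48 neighbours 37 could be tested, and 16 had at least 2 times the joint cells, with a median ratio of 1.37 over the neighbours and 0.992 over all genes. Without thinning 45 could be tested and 12 reached 2 times, of which 8 were among the 16. The other 8 of the 16 were then below 2, *Bpifb1* at 1.82, *Rnf125* at 1.82, *Mag* at 1.80, *Hamp2* at 1.78, *Fabp12* at 1.63, *Fabp4* at 1.34, *Bbs2* at 1.31 and *Bmyc* at 1.21 times, and *Mt3* stood at 2.34 times. The counts below stand beside the percent of all 14440 genes that reached 2 times with the same gene.

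*Obp2a*, in the lipocalin cluster of chromosome 2, was found with *Lcn10* at 12.0 times (6.97 to 19.1) and *Lcn6* at 11.7 times (6.74 to 18.8) the independent number, with *Lcn3* at 6.39 times and with *Bmyc* at 2.21 times, so all 4 of its tested neighbours passed (8.52% of all genes). *Bpifa1*, in the BPI fold cluster of the same chromosome, was found with *Bpifa5* at 6.45 times (2.95 to 12.2), *Bpifa2* at 5.86 times and *Bpifb1* at 3.24 times, 3 of 4 tested (2.79% of all genes), and *Bpifa2* was too rare to be tested once either control or week 2 or 10 after anti-RANKL was left out. *Mt4*, at the end of the metallothionein cluster, was found with *Mt3* at 7.15 times (5.57 to 9.04) on 69.5 joint cells and with *Bbs2* at 2.05 times (0.527 to 5.39), 2 of 6 tested (7.29% of all genes). Without the *Aire* trace *Bbs2* stood at 1.77 times and without the week 2 control at 1.92 times. The ubiquitous *Mt2* and *Mt1* stood at 1.24 and 1.43 times.

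*Fabp9* was found with *Fabp12* at 3.21 times (2.02 to 4.84) and *Fabp4* at 2.29 times (1.85 to 2.80), while *Fabp5* stood at 1.09 times (5.12% of all genes). *Hamp* was found with its copy *Hamp2* at 3.20 times (2.17 to 4.54) and with *Mag*, a myelin gene, at 2.89 times (2.09% of all genes). *Resp18* was found with *Ptprn*, another granule protein gene, at 3.93 times (1.70 to 7.73), and none of its other 5 neighbours passed (2.26% of all genes). *Spp1* was found with *Ibsp*, another bone sialoprotein gene, at 7.04 times (2.0 to 17.8) on 4.11 joint cells (6.57% of all genes). Without week 10 after anti-RANKL *Ibsp* stood at 3.45 times, and without that library or the week 2 control it was too rare to be tested. *Ttr* was found with *Rnf125* at 2.31 times (0.118 to 10.9) on 1.29 joint cells (10.3% of all genes). Reads shared with *Hamp2* could add to the *Hamp* pair, and the other pairs named share no 50-base stretch.

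**Figure D5:**
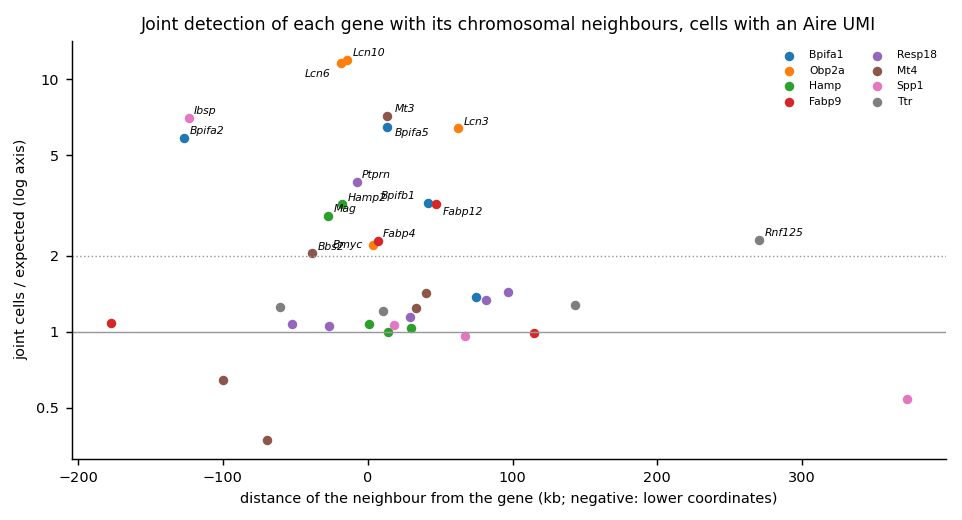
Each point is a neighbour of 1 of the 8 genes (colour), placed by its distance in kb (horizontal axis) and by the ratio of joint cells to those expected if independent (vertical log axis), in 3055 cells with *Aire*. The 16 neighbours at or above 2 are named, and the other 21 tested lie between 0.373 and 1.44.

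Other genes were ranked by the ratio of joint to expected cells with each gene in *Aire*-positive cells. Only the 3 nearest neighbours per side were set apart, so genes farther along the same chromosome could be among them. The highest ratios were those of *Cxcl17*, an airway chemokine, for *Bpifa1* (2.89 times, after *Bpifa5* and *Bpifb1*), *Fcna*, a lectin, for *Obp2a* (11.3 times) and 1700026D11Rik and the airway gene *Bpifb2* for *Hamp* (3.29 and 3.18 times). *Csf2*, a cytokine gene, led for *Fabp9* (5.48 times), *Ctla4* and the granule gene *Scg2* for *Resp18* (5.24 and 5.09 times) and the stomach gene *Gkn2* for *Mt4* (7.16 times). Gm11659 led for *Spp1* (7.33 times) and *Lypd8*, an intestinal gene, for *Ttr* (4.02 times). These pairs rest on 5.29 (*Gkn2*) to 12.6 (*Bpifb2*) joint cells, and the interval of the *Cxcl17* ratio (0.992 to 6.52) included 1. Over 21 pools of library by *Aire* class, the gene whose level (log2 of CPM plus 1) was most like that of *Obp2a* was *Gcg*, with r = 0.95, that of *Mt4* was *Cryaa* with r = 0.94, and that of *Fabp9* was *Ahcyl2* with r = 0.95. For *Resp18* it was *Cd2bp2* (r = 0.95), for *Spp1* Gm17416 (0.91), for *Hamp* *Napg* (0.90), for *Bpifa1* *Vegfa* (0.86) and for *Ttr* *Spink4* (0.77). The pools share libraries and differ in depth, so these correlations are a description.

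The lists of other genes stood as follows above an *Aire* level of 1.5 against 0. Of the airway, salivary and lacrimal genes tested 24 of 29 were at least 2-fold more frequent, of the testis and epididymis genes 12 of 18, of the liver, choroid plexus, bone and granule genes 13 of 25 and of the metallothioneins and fatty acid-binding proteins 7 of 11. The highest ratio among the airway, the bone and the fatty acid-binding genes was that of *Bpifb2*, a secreted BPI fold protein (1.65% against 0.0961%), *Bglap*, which encodes the bone hormone osteocalcin (3.30% against 0.269%) and *Fabp3*, the heart fatty acid-binding protein (2.37% against 0.324%). Of the keratinocyte genes 5 of 19 were more and 6 less frequent, where 15.2% of all genes were at least 2-fold less frequent, and of the MHC class II and costimulation genes 4 of 11 were more frequent. All 8 tuft markers, 4 of 8 cTEC markers and 4 of 6 *Ccl21a*-high markers were less frequent. Markers of cells outside the sort moved with *Aire* too. All 5 red cell markers (ratios 3.14 to 7.12), 7 of 8 myeloid and B cell markers, 4 of 10 T cell markers and 2 of 5 stromal markers were more frequent, while 1 of 6 TEC markers was, and their part in the values of the 8 genes was not tested.

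Along the time course the lists of other antigens went with the 8 genes. Of the airway, salivary and lacrimal genes tested 15 of 19 were at least 2-fold less frequent at week 2, 16 of 18 at week 4, 15 of 19 at week 6 and 0 of 26 at week 10. Of the metallothioneins and fatty acid-binding proteins 8, 9, 5 and 0 of 11 were, and of the testis and epididymis genes 6 of 10, 6 of 10, 4 of 9 and 0 of 16. The liver, choroid plexus, bone and granule genes had 6 of 18, 8 of 12, 4 of 12 and 0 of 17. Myeloid and B cell markers were less frequent too, with 6 of 6, 4 of 5, 5 of 5 and 0 of 8, and all 5 red cell markers were at week 2, while their part in the course of the 8 genes was not tested.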

How the data were processed

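Cells were sorted EpCAM+ CD45- thymic epithelial cells from 7 droplet libraries of 3 pooled thymi each. Per the labels and methods, the authors aligned reads to mm10 with Cell Ranger 2.2.0 and used Seurat 2.3.4 to keep cells with up to 7500 genes and up to 10% mitochondrial UMIs and genes found in at least 3 cells. The authors deposited each value as a natural log, of UMIs scaled within the cell plus 1. Their methods name a scale of 1000, while every cell sums to 10000. Whole UMIs were recovered in every cell from that scale (tolerance 0.001). The 10760 cell columns of combined tables were not used. Doublet removal by the authors is not given in the sources used here. No doublet caller was run here, and an alternative leaves out the 5% of cells with the most UMIs.

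Samples were grouped by their titles. A share at 2000 UMIs is the expected share of cells with the gene over all draws of 2000 UMIs without replacement (hypergeometric), with Clopper-Pearson 95% intervals on the expected count, and ratios of joint cells have exact Poisson intervals. Intervals cover counting error only. A gene was called at a 2-fold ratio where at least 10 cells in all were expected with it over both groups compared, and no p-value was computed between conditions, which have 1 library each. Members and gene lists were chosen with earlier results of these data known. Named genes were the 8 genes, *Aire*, *Fezf2*, *Ptprc*, ZsGreen, list genes, the 3 nearest protein-coding neighbours per side, and for each gene the 3 with the highest joint ratio (at least 30 cells and 5 joint cells) and the 3 with the highest correlation (mean of at least 5 CPM). The test across libraries was an exact two-sided sign-flip permutation test, checked on fixed sets of differences. The ratios of shares at equal depth and the draw of UMIs were tested on simulated counts. Gene positions were from GRCm38 and promoters from RefSeq; entries for *Fabp9* and *Ttr* were not used here. Alternatives covered depth, UMI threshold, *Aire* boundary, cell filters, left-out libraries and, chosen after seeing the data, *Bpifa1* left out, a threshold of 10 UMIs, drawing other genes without the 8, and neighbour settings. Python 3.11.15, numpy 2.4.6, pandas 2.3.3, scipy 1.17.1 and matplotlib 3.10.9 were used.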

Additional observations from a re-analysis of the deposited data

Results flagged for a closer look

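*Spp1* moved in opposite directions along the time course. Its share of cells was 0.0552 times the control at week 2, 0 times at week 4, where it was not listed, and 0.355 times at week 6, and 2.2 times the control at week 10, and the difference between these weeks was not tested. Cells with a *Ptprc* UMI, which the comparisons leave out, also held the genes. Of these 233 cells, as deposited, 21.9% had a UMI of *Bpifa1*, 16.7% of *Resp18*, 12.0% of *Hamp*, 6.87% of *Fabp9*, 6.44% of *Spp1*, 5.58% of *Obp2a* and 5.15% of *Mt4*, each above the 1.29% that a count of 0 allows. As deposited, the cells with *Ptprc* at 0 had these genes in 17.1%, 13.7%, 12.7%, 6.75%, 4.08%, 3.55% and 5.28%, in the same order, with a median of 8014.5 UMIs per cell against 10161 UMIs in the cells with *Ptprc*, so nothing is read from these shares about expression. A UMI of *Aire* was found in 35.2% of them and of *Epcam* in 82.4%. With 1 library per group, no library could be set against replicates of its group.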

How the results depend on the processing

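No paired analysis was possible because each group has 1 library. No result changed sign among those called. The ratio of cells with at least 1 of the 8 genes at week 2 was 0.380 and became 0.495 without thinning, 0.315 at 2 or more UMIs, 0.232 at 10 or more UMIs and 0.241 without *Bpifa1*. At week 4 it was 0.238 and became 0.323 at 4000 UMIs, 0.0630 at 2 or more UMIs, 0.0730 at 10 or more and 0.0563 without *Bpifa1*. At week 6 it was 1.10 and became 0.845 at 1000 UMIs, 1.42 at 4000, 0.712 at 2 or more UMIs, 0.0982 at 10 or more and 0.228 without *Bpifa1*, so its direction depends on these settings. Joint detection of 2 or more genes, 1.5, became 1.71 at 1000 UMIs, 1.33 at 4000, 1.07 without thinning and 2.02 at 10 or more UMIs. At 1000 UMIs the difference in genes detected was -5.28 (exact permutation test, adjusted p = 0.0417) and that in keratinocyte genes 0.0746 (adjusted p = 0.1875). Without the 5% of cells with the most UMIs the differences were 0.921 for antigens, 0.152 for keratinocyte genes and 15.7 for MHC class II UMIs. With each library left out in turn they were 1.02 to 1.13, 0.168 to 0.206 and 17.8 to 21.2, and 5 libraries cannot give an exact p below 0.0625. Of neighbours in cells with *Aire* at 0, 9 of 31 passed against 16 of 37, and without thinning 12 of 45, of which 8 were among the 16. Except where the number of libraries or the adjustment over 4 measures sets the p, the cause was not tested. By summed CPM over cells of at least 2000 UMIs, *Bpifa1* was 2.07, 7.28, 17.5 and 3.01 times the control at weeks 2, 4, 6 and 10. Cells with 10 or more of its UMIs held 91.2%, 91.0%, 76.6% and 81.0% of them at those weeks, so these sums rest on few cells.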
